A study of Mus musculus with 8 samples.

Results

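The response of control MC38 cells to 30 Gy of X-rays was read from mRNA sequencing libraries, 2 of irradiated and 2 of non-irradiated cells, which are 4 of the 8 libraries of the study. MC38 is a mouse colon adenocarcinoma line. The control line, labelled WT, carries a CRISPR control in both of its groups. Irradiated cells received the dose in a single fraction and their RNA was extracted 60 hours later, and no hour is given for the non-irradiated cells. The other 4 libraries are of a line edited with a guide RNA against the mechanically gated channel Piezo2 (KO), with 2 libraries at each of the same doses, and they serve here for the estimate of spread and for a comparison at the end. The labels do not state that the 2 libraries of a group are separate cultures. P-values therefore cover only library-to-library spread, and this may be technical. All 29079 genes of the deposited count table were considered, and 14923 with enough reads were tested. Total counts were 16.9 and 15.2 M in the non-irradiated libraries and 13.6 and 17.2 M in the irradiated libraries, replicates 1 and 2 in that order, and pairs of values below keep this order. Values are written with the non-irradiated pair first, then "against", then the irradiated pair.

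Ionising radiation breaks DNA, and dividing cells answer through the kinases ATM and ATR, the transcription factor p53 and a halt before mitosis. DNA or RNA that reaches the cytosol of damaged cells can be bound by sensors such as cGAS, RIG-I and MDA5, which lead to interferon. Interferon in turn acts through a complex that holds STAT2 and IRF9 on promoters that hold an interferon-stimulated response element (ISRE). Many genes of late G2 and mitosis are instead held by a cell cycle homology region (CHR) and CCAAT boxes in their promoters.

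These promoter letters are printed here because interferon-stimulated and mitotic genes are 2 groups in which most tested members rose. In RefSeq promoters of the build GRCm38.p6, from 250 bases before to 50 bases after the start, the ISRE was searched on both strands as GAAA, any 2 bases and GAAA again, with overlapping matches allowed. It was found in 25 of the 52 promoters of interferon-stimulated effector genes in the table (48.1%) and in 6 of 20 promoters of MHC class I genes (30.0%), against 1131 of all 32851 promoters (3.44%). Among promoters of tested genes it was found in 327 of 10516 (3.11%). For 5 effector genes that rose and for Ifitm2, which fell, the stretch round the match nearest before the start is shown in the direction of transcription. It has up to 15 bases on each side, and matches within it are in capitals. Ifit3 and Ddx60 each held 2 matches before the start, and only the nearest is shown.
Ifit3: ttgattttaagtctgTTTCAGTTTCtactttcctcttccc
Ifit1: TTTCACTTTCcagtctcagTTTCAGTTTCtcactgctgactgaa
Rsad2: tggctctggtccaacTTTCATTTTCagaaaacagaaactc
Ddx60: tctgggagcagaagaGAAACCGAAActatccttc
Oas1g: ccttctcggGAAATGGAAACTGAAAat
Ifitm2: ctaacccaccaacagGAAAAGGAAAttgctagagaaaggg
They lie at chr19:34583392-34583431 (plus strand), chr19:34640785-34640828 (plus), chr12:26456548-26456587 (minus), chr8:61928053-61928086 (plus), chr5:120887614-120887640 (minus) and chr7:140955983-140956022 (minus). The 250 bases before the start of Isg15, at chr4:156200819-156201068 on the minus strand, held 3 matches in 1 overlapping run.
Isg15: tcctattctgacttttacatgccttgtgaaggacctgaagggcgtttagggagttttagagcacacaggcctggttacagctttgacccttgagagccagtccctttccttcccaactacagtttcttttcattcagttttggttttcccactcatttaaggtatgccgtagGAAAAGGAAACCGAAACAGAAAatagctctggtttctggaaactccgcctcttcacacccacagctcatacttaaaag
The letters stood before the start both of genes that rose and of Ifitm2, at 157 and 149.7 against 105 and 106 CPM (-0.54 ± 0.090).

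The CHR letters TTTGAA, searched in the same way, were found in 35 of 51 promoters of G2/M and mitosis genes (68.6%) and in 17.9% of all promoters, and CCAAT in 36 of these 51 (70.6%) and in 37.4% of all. The DNA replication and S phase genes held TTTGAA in 13.2% and the E2F letters TTTCCCGC in 18.4% of 38 promoters, against 1.07% of all promoters for the latter. The list promoters are those of tested genes. In all 10516 promoters of tested genes the shares were 12.1% for TTTGAA, 38.9% for CCAAT and 2.14% for TTTCCCGC. The 13.2% of the S phase genes was thus near the share of tested genes. For the mitotic cyclin gene Ccnb2 and the microtubule-depolymerising kinesin gene Kif2c the match lies before the start, at chr9:70421701-70421736 and chr4:117178855-117178890, both on the minus strand.
Ccnb2: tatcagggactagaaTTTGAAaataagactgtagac
Kif2c: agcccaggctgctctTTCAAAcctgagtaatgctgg
A match is a run of letters and not a measured binding site.

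After 30 Gy 38.9% of the tested genes differed: 3047 were higher (20.4%; 4569 with the replicate block) and 2751 lower (18.4%; 4465 with the block) by edgeR's quasi-likelihood test at a Benjamini-Hochberg adjusted p under 0.05. "Rose" and "fell" below mean genes called in this way. Counts for the groups of genes below are to be read beside these shares of all tested genes. Changes upward were larger: 1523 genes rose at least 2-fold (10.2%) and 404 fell at least 2-fold (2.71%). The median log2 change was 1.00 in genes that rose, -0.59 in genes that fell and 0.028 in all tested genes. Levels are given in CPM, counts scaled to library size after TMM scaling. Of 4 equal bins of genes by mean CPM, the lowest held 857 rises and 74 falls and the highest 691 rises and 1088 falls. In the fit of fewer libraries the lower count was 1741 without non-irradiated replicate 1 and 1781 without irradiated replicate 2, and the higher count was 1998 without irradiated replicate 1. Of the called genes, 1615 rises and 1444 falls kept their call with each of the 4 WT libraries left out in turn. Where a group's counts moved by over 1.5 times and by at least 2 genes under another fit, those counts stand in parentheses.

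**Figure D1:**
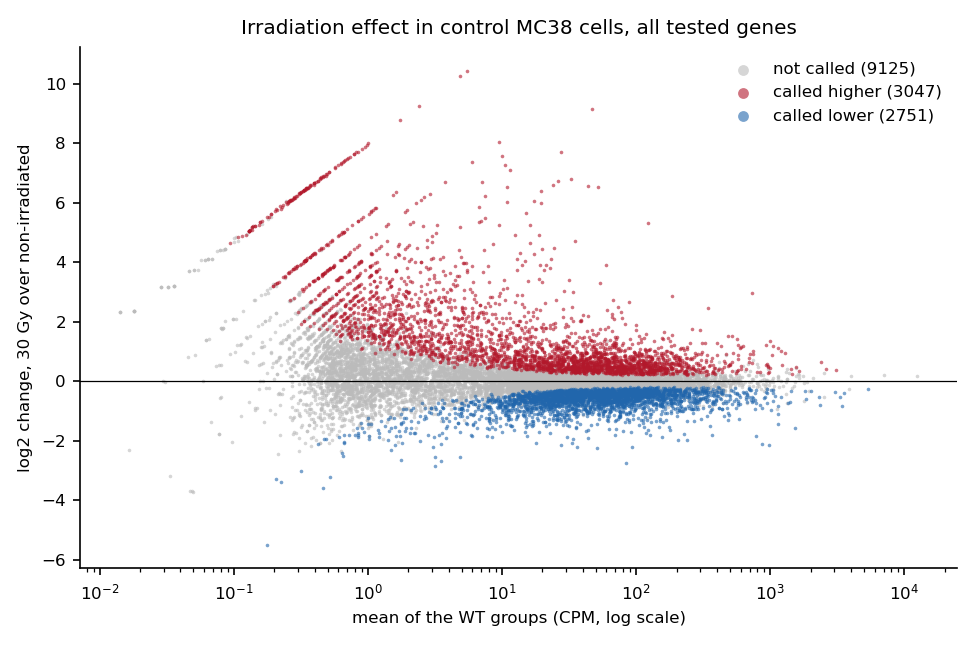
Each point is 1 of the tested genes, with its mean CPM over the WT groups on a log axis against its log2 change after 30 Gy; red and blue mark genes called higher (3047) and lower (2751). Large rises lie mostly at low levels, where diagonal rows are genes with 0 to a few reads in non-irradiated libraries, and falls lie mostly at high levels.

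Interferon-stimulated effectors, the proteins that block viral entry, translation and replication, rose nearly throughout. Of these genes 57 rose and 1 fell of 65 tested, with a median log2 change of 2.33, or 2.30 with genes at 0 reads set to the fold that 3 counts allow. Oasl2, a relative of the RNA-activated 2′-5′ oligoadenylate synthetases, was at 0.487 and 0.667 against 76.5 and 51.9 CPM, and the difference of 6.79 ± 0.27 on the log2 scale was far larger than the spread of its libraries (edgeR adjusted p = 8.59e-06). Rtp4, an interferon-induced chaperone of receptors, was at 0.122 and 0.200 against 25.3 and 20.5 CPM (7.10 ± 0.33). Ifit3, which helps bind foreign RNA, was at 0.548 and 0.400 against 62.4 and 32.2 CPM (6.60 ± 0.55), so each irradiated library of these 3 genes stood far above both non-irradiated ones. Other effectors had higher levels without irradiation and smaller rises. Lgals3bp, a secreted glycoprotein, was at 30.8 and 27.9 against 127 and 128 CPM (2.12 ± 0.10), the ubiquitin ligase gene Trim25, which activates RIG-I, at 100.3 and 101 against 266 and 252 CPM (1.36 ± 0.072), and Zc3hav1, which encodes the zinc finger antiviral protein, at 124 and 139 against 197 and 208 CPM (0.62 ± 0.081). Rsad2, the antiviral enzyme viperin, and the interferon-specific protease gene Usp18 rose by 6.02 and 5.17. From silence, Mx2, of the dynamin-like antiviral GTPases but annotated as a polymorphic pseudogene, had 0 and 0 against 152 and 192 reads and was at least 115-fold higher. Oas2 had 2 and 0 against 275 and 314 reads, 295-fold (95% interval 81.2 to 2439.6) higher. The exception in direction was Ifitm2, a membrane protein that hinders viral fusion, given above with its promoter letters. Its neighbour Ifitm1 (log2 0.34) and the RNA exonuclease gene Isg20 (0.030) were not called, though Ifitm1 passed with the replicate block (edgeR adjusted p = 0.0011). These genes are spread over the genome, but several belong to arrays of near-identical copies whose reads may be split between copies, so single values in the Oas, Ifit, Slfn and Trim30 groups are uncertain.

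Interferon-inducible GTPases, which attack the vacuoles of intracellular microbes, had the largest median of any group: 17 rose and 0 fell of 19 tested, with a median log2 change of 5.22, or 4.71 with genes at 0 reads set to the fold that 3 counts allow. All 19 had both irradiated libraries above both non-irradiated ones, as 36.3% of all tested genes did. Gbp3 was at 0.365 and 0.533 against 47.1 and 29.9 CPM (6.40 ± 0.33), Gbp7 at 1.16 and 1.27 against 43.5 and 30.05 CPM (4.91 ± 0.24) and Irgm2 at 2.01 and 3.13 against 77.4 and 56.9 CPM (4.71 ± 0.22). Irgm1 started highest, at 19.2 and 19.4 against 108 and 95.3 CPM (2.40 ± 0.087). Copies at or near silence before irradiation give only bounds or wide intervals. Iigp1, with 0 and 0 against 178 and 117 reads, was at least 98.4-fold higher. Gbp8, with 0 and 0 against 17 and 13 reads, was at least 10.01-fold higher, and Gbp6, with 2 and 0 against 75 and 87 reads, was 81.1-fold (95% interval 22.1 to 675) higher. The Gbp and Tgtp genes lie in arrays of similar copies, and the counting of reads that map to several copies is not described.

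The interferons themselves were barely detected: of the type I and III ligands 0 rose and 0 fell of 2 tested. Ifnb1 had 1 and 0 against 4 and 4 reads, a ratio of 8.01-fold (95% interval 1.07 to 355), and was not called (edgeR adjusted p = 0.0636, 0.0421 with the replicate block), and Ifna4 had 0 reads in the WT libraries. The receptor genes for type I interferon did not pass, with Ifnar1 at 92.9 and 91.5 against 100.1 and 100.3 CPM (0.12 ± 0.065) and Ifnar2 at a log2 change of 0.038, while those for interferon gamma, Ifngr1 and Ifngr2, rose by 0.67 and 0.67. Ifnar1 passed with the replicate block (edgeR adjusted p = 0.0415). Downstream, among interferon signalling genes 12 rose and 1 fell of 22 tested, with a median log2 change of 0.67. Irf7, which amplifies interferon production, was at 2.31 and 1.0001 against 31.9 and 23.9 CPM (4.04 ± 0.28). Irf9, the DNA-binding subunit of the interferon-activated complex, was at 13.6 and 11.7 against 51.5 and 43.6 CPM (1.91 ± 0.12). The feedback inhibitor gene Socs1 was not called (-0.36; edgeR adjusted p = 0.0264 with the replicate block).

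Among nucleic acid sensors and their adaptors 13 rose and 2 fell of 24 tested, with a median log2 change of 0.59 (16 and 5 with the replicate block). Zbp1, a sensor of Z-form nucleic acids that can start necroptosis, was at 0.183 and 0.0667 against 14.7 and 13.2 CPM (6.69 ± 0.30). The RNA sensor genes Dhx58 and Ifih1, which encode LGP2 and MDA5, were at 2.31 and 2.40 against 40.4 and 31.1 CPM (3.92 ± 0.18) and at 9.98 and 11.001 against 50.4 and 43.05 CPM (2.15 ± 0.10). On the DNA side, the inflammasome sensor gene Aim2 rose by 2.04 and Tmem173, which encodes STING, by 0.89, from 10.5 and 13.1 to 22.5 and 21.1 CPM. The gene of the enzyme that feeds STING, Cgas, was at 6.63 and 4.40 against 6.20 and 7.41 CPM and was not called (0.30 ± 0.22, edgeR adjusted p = 0.314). The helicase gene Dhx9 fell by 0.59. The receptors Tlr2, Tlr3 and Tlr4 rose by 2.24, 1.25 and 0.85.

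MHC class I presents peptides of the cell's own proteins to CD8 T cells. Of its heavy chains, transporters and peptidases 18 rose and 0 fell of 24 tested, with a median log2 change of 1.10. The immunoproteasome subunit genes Psmb8, Psmb9 and Psmb10 rose by 2.12 ± 0.22, 2.17 ± 0.23 and 1.91 ± 0.10, with Psmb8 at 5.17 and 8.47 against 27.6 and 31.3 CPM. Tapbp, tapasin, which holds empty MHC molecules at the peptide transporter, was at 139.9 and 142 against 437 and 485 CPM (1.71 ± 0.081), and H2-D1 at 651 and 618 against 1523 and 1379.5 CPM (1.19 ± 0.090). The transporter gene Tap2 and the transactivator gene Nlrc5 rose by 1.27 and 0.94. The general chaperones Calr, Canx and Pdia3 were not called, at -0.038, 0.15 and 0.13, and Canx and Pdia3 passed with the replicate block (edgeR adjusted p = 0.000141 and 0.00336). Of the class II path, Cd74, the invariant chain, went from 0.243 and 0.200 to 11.03 and 15.3 CPM (5.84 ± 0.30), while its transactivator gene Ciita had 0 and 2 against 5 and 10 reads and was not called (edgeR adjusted p = 0.0535). Ciita passed with the replicate block (adjusted p = 0.0225), with no low-count filter and without non-irradiated replicate 2. Of class II genes 3 rose and 0 fell of 5 tested, with a median log2 change of 2.73 (5 and 0 with the replicate block, 1 and 0 without non-irradiated replicate 1 or without irradiated replicate 1 or without irradiated replicate 2).

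Most surface molecules that bind receptors on lymphocytes rose: 14 rose and 0 fell of 20 tested, with a median log2 change of 1.06. Tnfsf10, which encodes the death ligand TRAIL, had 0 and 0 against 40 and 18 reads and was at least 19.3-fold higher. Cd80, a co-stimulatory ligand, had 0 and 0 against 12 and 9 reads (at least 7.01-fold). Cd47, the signal that holds off phagocytes, was at 194 and 184 against 327 and 307 CPM (0.74 ± 0.100), and Lgals9 at 67.5 and 68.6 against 120.4 and 119 CPM (0.82 ± 0.070). The stress ligands for the receptor NKG2D did not move together: Ulbp1 rose by 0.49, a call lost without non-irradiated replicate 1 or without irradiated replicate 2, and Raet1d (0.12) and Raet1e (-0.24; edgeR adjusted p = 0.0327 with the replicate block) were not called.

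Of chemokines and cytokines 14 rose and 2 fell of 23 tested, with a median log2 change of 1.44, or 1.42 with genes at 0 reads set to the fold that 3 counts allow. Ccl9, an attractant of myeloid cells, had the largest change with more than a few reads before irradiation, at 1.52 and 0.667 against 112 and 93.4 CPM (6.52 ± 0.26, edgeR adjusted p = 8.59e-06). The membrane-bound chemokine genes Cx3cl1 and Cxcl16 were at 12.1 and 12.4 against 46.6 and 59.4 CPM (2.11 ± 0.17) and at 2.80 and 3.33 against 11.6 and 17.7 CPM (2.26 ± 0.30), and the neutrophil attractant gene Cxcl1 at 3.29 and 2.53 against 16.9 and 10.7 CPM (2.24 ± 0.29). The T cell attractant gene Cxcl9 rose from silence, with 0 and 0 against 5 and 5 reads (at least 3.34-fold higher). The macrophage growth factor gene Csf1 was at 374 and 371 against 380.4 and 390.3 CPM and was not called. Lbp, which hands bacterial lipopolysaccharide to its receptor, was at 0.122 and 0.267 against 16.004 and 13.7 CPM (6.22 ± 0.28).

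Complement genes rose in part: 7 rose and 2 fell of 15 tested, with a median log2 change of 1.45, or 1.08 with genes at 0 reads set to the fold that 3 counts allow (7 and 0 with only the 4 WT libraries fitted or without non-irradiated replicate 1 or without irradiated replicate 2). C3, on which the complement paths meet, was at 0.183 and 0.133 against 87.7 and 99.04 CPM (9.13 ± 0.22). C1s1, a protease of the classical path, was at 3.10 and 2.93 against 40.8 and 43.96 CPM (3.81 ± 0.22) and Clu, clusterin, at 16.9 and 14.1 against 68.5 and 74.2 CPM (2.20 ± 0.12). Of NF-kB subunits and feedback genes 9 rose and 2 fell of 20 tested, with a median log2 change of 0.35 (7 and 0 without non-irradiated replicate 1 or without irradiated replicate 2). The inhibitors Nfkbia and Nfkbie rose by 0.97 ± 0.080 and 1.33 ± 0.15 and the subunit gene Relb by 0.74 ± 0.11, while Rela was at 96.6 and 101 against 105 and 124 CPM and was not called (edgeR adjusted p = 0.00042 with the replicate block).

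**Figure D2:**
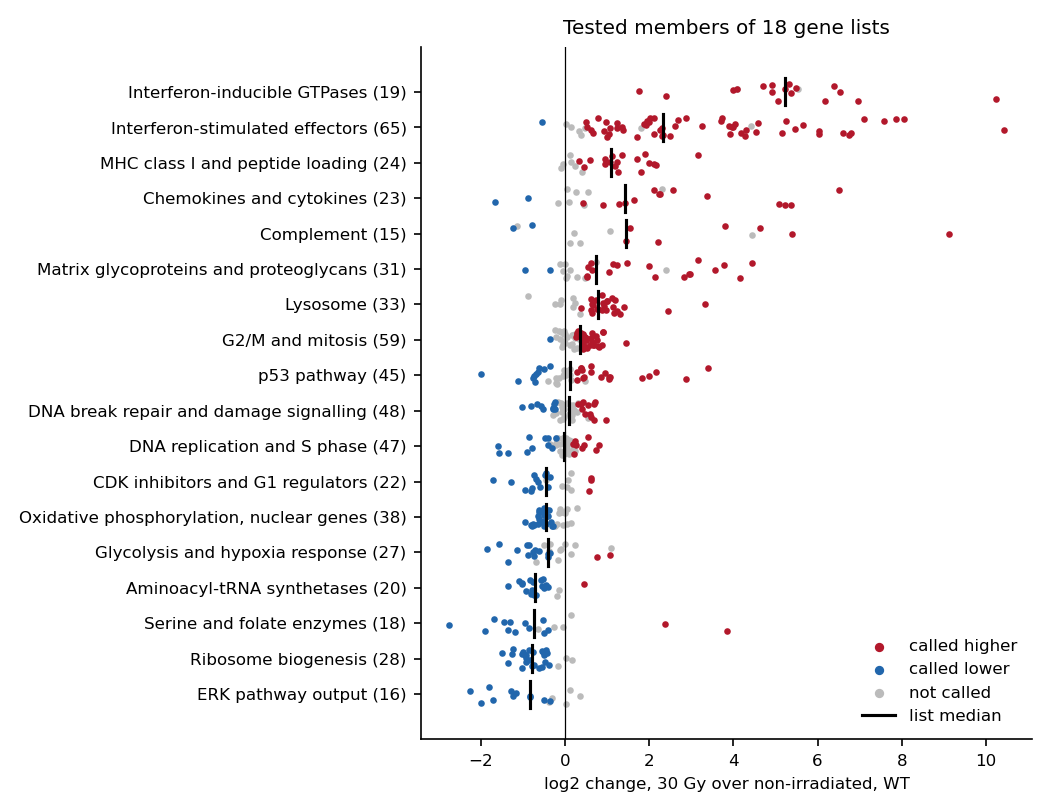
Each point is a tested member of a gene list, at its log2 change after 30 Gy in WT cells; red, blue and grey mark genes called higher, called lower and not called, the black line is the list's median and the number of members tested stands beside the name. Interferon and antigen presentation lists lie to the right of 0, ribosome biogenesis, serine and folate, aminoacyl-tRNA synthetase and ERK output lists to the left, and the p53, repair and S phase lists on both sides.

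Cell cycle genes are given by phase. Among regulators of G1 3 rose and 13 fell of 22 tested, with a median log2 change of -0.44 (5 and 14 with the replicate block, 1 and 10 without non-irradiated replicate 2, 1 and 11 without irradiated replicate 1). Ccnd1, the cyclin through which growth factors start the cycle, was at 751 and 888 against 314 and 367 CPM (-1.27 ± 0.12, edgeR adjusted p = 0.00025). Ccne1, which drives entry into S phase, was at 14.97 and 15.8 against 5.41 and 4.11 CPM (-1.70 ± 0.18), and both irradiated libraries of both cyclins were below both non-irradiated ones, as for 32.6% of all tested genes. The atypical repressors E2f7 and E2f8 fell by 0.65 and 0.73. The inhibitor gene Cdkn1b, p27, rose by 0.62, a call lost without non-irradiated replicate 2 or without irradiated replicate 1, and Rbl2, the pocket protein p130 of resting cells, rose by 0.57 ± 0.066. The related Rbl1, p107, fell by 0.67.

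DNA replication genes had no common direction: 9 rose and 11 fell of 47 tested, with a median log2 change of -0.013 (14 and 19 with the replicate block, 4 and 10 with only the 4 WT libraries fitted or without non-irradiated replicate 2, 4 and 11 with DESeq2, 5 and 11 with no low-count filter, 4 and 9 without irradiated replicate 1 or without irradiated replicate 2). The main counts were near the shares of all tested genes, 20.4% higher and 18.4% lower. Among the rises were Orc1, of the origin recognition complex, at 15.2 and 18.1 against 28.3 and 30.4 CPM (0.82 ± 0.12) and Mcm10, which acts when origins fire, at 64.7 and 63.2 against 105 and 107 CPM (0.73 ± 0.075). Enzymes that keep uracil out of DNA or supply nucleotides were among the falls: Ung, uracil DNA glycosylase, was at 23.2 and 21.7 against 6.56 and 8.61 CPM (-1.56 ± 0.18), Dut at 115 and 108 against 71.2 and 60.1 CPM (-0.77 ± 0.10) and Tyms fell by 0.89. The polymerase delta subunit gene Pold2 was at 91.6 and 96.2 against 29.6 and 32.5 CPM (-1.60 ± 0.15), while its partner Pold1 was at 110.4 and 126 against 109 and 125 CPM and was not called. The sliding clamp gene Pcna was not called (-0.32 ± 0.13), but passed with the replicate block (edgeR adjusted p = 2.96e-08), with no low-count filter and without non-irradiated replicate 2.

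Most genes of G2 and mitosis rose by small amounts: 35 rose and 1 fell of 59 tested, with a median log2 change of 0.36 (45 and 5 with the replicate block). Aurka, the spindle pole kinase, was at 77.3 and 75.9 against 154 and 134 CPM (0.91 ± 0.087), Hmmr, a spindle assembly factor, at 174 and 174 against 285 and 309.8 CPM (0.77 ± 0.077) and Aspm at 179 and 212 against 315 and 336 CPM (0.74 ± 0.11). Kif2c, whose promoter letters are shown above, was at 108 and 102 against 183 and 188 CPM (0.82 ± 0.070). The proliferation marker gene Mki67 was at 884 and 1130.1 against 869.7 and 1123 CPM and was not called (-0.016 ± 0.18), nor were Foxm1, an activator of mitotic genes (-0.24), and Aurkb (-0.21). Foxm1 and Aurkb passed as lower with the replicate block (edgeR adjusted p = 9.26e-06 and 0.000516). In these bulk libraries more cells in a phase and more RNA per cell cannot be told apart.

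Several chromatin protein genes with high levels fell. Hmga1, a protein that bends AT-rich DNA, was at 1655 and 1540.2 against 371 and 347 CPM (-2.15 ± 0.082, edgeR adjusted p = 8.59e-06). H1f0, a linker histone usual in cells that stop dividing, was at 1580.5 and 1221 against 369 and 282 CPM (-2.11 ± 0.19), and H3f3b, a replication-independent histone H3 gene, at 1945 and 1409 against 701 and 523 CPM (-1.46 ± 0.24). Its sister gene for the same protein, H3f3a, was at 73.9 and 80.3 against 87.2 and 111 CPM and was not called, but passed with the replicate block (edgeR adjusted p = 2.64e-06) and with no low-count filter. Of variant and polyadenylated histone genes 0 rose and 3 fell of 8 tested, with a median log2 change of -0.74 (2 and 6 with the replicate block, 1 and 5 with no low-count filter). Of replication-dependent ones 0 rose and 4 fell of 12 tested, with a median log2 change of -1.21 (0 and 8 with the replicate block, 0 and 7 with no low-count filter), among them Hist1h1c at 75.8 and 61.9 against 18.8 and 17.7 CPM (-1.92 ± 0.14). Replication-dependent histone mRNAs lack poly(A) tails, and how the RNA was selected is given only as mRNA sequencing from total RNA.

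Genes of the p53 pathway went both ways: 19 rose and 10 fell of 45 tested, with a median log2 change of 0.13 (11 and 8 without non-irradiated replicate 1 or without non-irradiated replicate 2, 10 and 9 without irradiated replicate 1, 12 and 8 without irradiated replicate 2). The share that rose was above the 20.4% of all tested genes, and the share that fell was near their 18.4%. The largest rise in the list was 3.39. Trp53 itself rose, from 402 and 364 to 513 and 539 CPM (0.46 ± 0.078). Eda2r, a death-domain receptor, rose by 1.84 ± 0.26, Sesn1 by 0.62 ± 0.12 and Ephx1 by 1.08 ± 0.15. Some members often used to read p53 activity were among the 16 not called: Mdm2, the ligase that degrades p53, was at 60.8 and 51.7 against 50.9 and 51.9 CPM, Ccng1 at 72.5 and 72.1 against 75.6 and 72.1 CPM, Bbc3, the killer protein PUMA, at 17.7 and 14.6 against 14.6 and 17.3 CPM and Gdf15 at 3.65 and 4.33 against 3.46 and 2.57 CPM. Others fell, with Bax at -0.49 ± 0.098, Phlda3 at -0.69 ± 0.13, Fdxr at -0.73 ± 0.15 and Plk3 at -1.11 ± 0.19. Among genes of DNA break repair 12 rose and 10 fell of 48 tested, with a median log2 change of 0.10 (19 and 12 with the replicate block, 10 and 6 with DESeq2, 11 and 5 without non-irradiated replicate 1, 9 and 4 without non-irradiated replicate 2, 11 and 4 without irradiated replicate 1, 7 and 5 without irradiated replicate 2). The main counts for repair were near the shares of all tested genes, 20.4% higher and 18.4% lower. Dclre1c, the end-trimming nuclease Artemis, rose by 0.97 ± 0.12 and Brca1 by 0.56 ± 0.11, while Xrcc6, the Ku70 subunit, and Nbn of the break sensor fell by 0.57 and 0.65. The kinase genes Atr (-0.28) and Chek1 (0.17) were not called, and both passed with the replicate block (edgeR adjusted p = 0.000652 and 0.0313).

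Among BCL2 family and apoptosis genes 6 rose and 3 fell of 21 tested, with a median log2 change of 0.10 (9 and 6 with the replicate block, 8 and 5 with no low-count filter). 2 killers of the BH3-only class had the largest rises: Bcl2l11, BIM, was at 9.61 and 8.13 against 54.2 and 41.9 CPM (2.43 ± 0.21, edgeR adjusted p = 0.000131), and Bmf at 2.68 and 2.53 against 12.5 and 12.8 CPM (2.27 ± 0.20). The survival gene Bcl2l1, BCL-XL, was at 119 and 124 against 58.6 and 67.4 CPM (-0.94 ± 0.13), and Mcl1 was not called (-0.14; edgeR adjusted p = 0.00431 with the replicate block). The inflammatory caspase genes Casp4 and Casp12 rose by 1.80 ± 0.14 and 1.44 ± 0.11. Of necroptosis, pyroptosis and inflammatory caspase genes 3 rose and 1 fell of 10 tested, with a median log2 change of 0.23 (6 and 1 with the replicate block). Mlkl, the executioner of necroptosis, was at 186 and 182 against 134 and 121 CPM and fell (-0.53 ± 0.078).

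Most readouts of the growth factor pathway through ERK fell. Of these genes 0 rose and 11 fell of 16 tested, with a median log2 change of -0.83. Epha2, a receptor tyrosine kinase, was at 310.1 and 341 against 80.4 and 83.8 CPM (-1.99 ± 0.090). The transcription factor genes Etv5 and Fosl1 were at 107 and 111 against 29.6 and 32.6 CPM (-1.81 ± 0.10) and at 130.2 and 151 against 39.001 and 47.3 CPM (-1.70 ± 0.14), and the ERK phosphatase gene Dusp6 at 60.04 and 58.8 against 29.5 and 23.8 CPM (-1.16 ± 0.13). In contrast Dusp4 (0.036) and Phlda1 (0.12) were not called. Among immediate early genes 4 rose and 8 fell of 18 tested, with a median log2 change of -0.27. Egr1 fell by 1.33 and Nr4a1 by 1.28, whereas Junb was at 32.8 and 32.8 against 74.04 and 80.9 CPM (1.24 ± 0.13) and Egr2 rose by 1.88 ± 0.29. Myc was at 132 and 147 against 88.3 and 103 CPM (-0.55 ± 0.13), a call lost without non-irradiated replicate 2 or without irradiated replicate 1.

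Genes that make ribosomes fell nearly throughout: 0 rose and 25 fell of 28 tested, with a median log2 change of -0.77. Fbl, the methyltransferase of ribosomal RNA, was at 139 and 118 against 51.4 and 48.4 CPM (-1.36 ± 0.097), Dkc1, the pseudouridine synthase, at 147 and 142 against 64.7 and 57.7 CPM (-1.24 ± 0.083) and Rrp12, an export factor of both subunits, at 46.3 and 43.4 against 16.4 and 15.5 CPM (-1.49 ± 0.12). The abundant nucleolar protein genes Ncl and Npm1 fell by 0.84 and 0.54. Of cytosolic ribosomal protein genes 2 rose and 4 fell of 53 tested, with a median log2 change of 0.0066 (15 and 16 with the replicate block, 2 and 1 without non-irradiated replicate 1, 0 and 1 without irradiated replicate 2). Many ribosomal protein genes have processed pseudogenes with near-identical sequence. Reads in processed pseudogenes differed by replicate number and hardly by dose, with 1127 and 2817 raw CPM (not TMM scaled) in the non-irradiated and 1234 and 3050 in the irradiated libraries, and their part in the ribosomal protein counts was not tested.

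Most aminoacyl-tRNA synthetases, which load amino acids onto tRNAs, fell: 1 rose and 17 fell of 20 tested, with a median log2 change of -0.71. Mars, for methionine, was at 182 and 187 against 70.6 and 72.9 CPM (-1.36 ± 0.070), Tars at 229 and 214 against 101 and 108 CPM (-1.08 ± 0.076) and Gars at 300.4 and 293 against 143 and 151 CPM (-1.02 ± 0.072). Qars, for glutamine, rose by 0.47 ± 0.084. Of serine and folate enzymes 2 rose and 12 fell of 18 tested, with a median log2 change of -0.74. Mthfd2, a mitochondrial folate enzyme, was at 144 and 150.1 against 22.6 and 21.2 CPM (-2.75 ± 0.097). Mthfd1l, the mitochondrial formate-making enzyme, was at 249 and 239 against 65.4 and 65.97 CPM (-1.90 ± 0.075), Psph, the last step of serine synthesis, at 65.3 and 63.8 against 19.5 and 20.9 CPM (-1.68 ± 0.13) and Pycr1, of proline synthesis, at 36.8 and 37.002 against 12.2 and 14.9 CPM (-1.44 ± 0.12). The glycine cleavage gene Gldc moved the other way, from 0.548 and 0.600 to 8.72 and 8.10 CPM (3.86 ± 0.26).

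The transcription factor ATF4 controls many of these genes, and of its stress axis 5 rose and 11 fell of 23 tested, with a median log2 change of -0.36. Asns, asparagine synthetase, was at 289 and 253 against 89.1 and 82.6 CPM (-1.66 ± 0.10), and Cth and Chac1 fell by 2.12 and 1.07. The stress genes Ddit3, CHOP, and Ppp1r15a, GADD34, rose by 0.63 ± 0.11 and 0.92 ± 0.11. Of amino acid transporters 4 rose and 8 fell of 16 tested, with a median log2 change of -0.38. Slc7a5, which imports leucine, was at 331 and 356 against 129 and 144 CPM (-1.33 ± 0.12), Slc1a5 fell by 0.998 and the cystine importer gene Slc7a11 by 0.87, while the arginine importer gene Slc7a2 rose by 1.62 ± 0.095. Among chaperones of the endoplasmic reticulum 1 rose and 7 fell of 16 tested, with a median log2 change of -0.28 (3 and 11 with the replicate block, 1 and 4 without non-irradiated replicate 1 or without irradiated replicate 2), with Xbp1 at -0.64, Hyou1 at -0.52 and Ern1, which splices Xbp1, at 0.79.

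Most nuclear genes of oxidative phosphorylation fell by small amounts: 0 rose and 25 fell of 38 tested, with a median log2 change of -0.44 (0 and 13 without non-irradiated replicate 1, 0 and 15 without irradiated replicate 2). Cyc1 of complex III was at 131 and 126 against 69.3 and 64.6 CPM (-0.94 ± 0.086), Sdhb of complex II at 106 and 107 against 60.5 and 61.2 CPM (-0.81 ± 0.068) and Atp5a1 of the ATP synthase at 668 and 623 against 399 and 365 CPM (-0.76 ± 0.087). Of glycolysis and hypoxia genes 2 rose and 14 fell of 27 tested, with a median log2 change of -0.40 (4 and 20 with the replicate block). Ldha, lactate dehydrogenase, was at 1222 and 1048 against 632 and 585 CPM (-0.90 ± 0.11) and Egln3, a prolyl hydroxylase, at 11.1 and 7.60 against 2.45 and 2.74 CPM (-1.84 ± 0.25). Gapdh was not called (-0.17; edgeR adjusted p = 6.59e-05 with the replicate block).

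Txnip, which binds thioredoxin and takes glucose transporters off the surface, had one of the largest rises among genes with a high level after irradiation. It was at 6.57 and 5.20 against 222 and 254 CPM (5.33 ± 0.13, edgeR adjusted p = 2.79e-06), with no overlap between the groups. Its relative Arrdc2 and Mxd4, a repressor of the Myc network, rose by 0.79 ± 0.15 and 1.67 ± 0.078, and Arrdc3 was not called (0.15). Of Txnip and the arrestin domain genes 4 rose and 0 fell of 8 tested, with a median log2 change of 0.27.

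Most lysosomal genes rose: 25 rose and 0 fell of 33 tested, with a median log2 change of 0.79 (28 and 2 with the replicate block). Gpnmb, a glycoprotein of stressed lysosomes, was at 112 and 102 against 578 and 585 CPM (2.44 ± 0.083). Ctsd, the protease cathepsin D, was at 329.9 and 288 against 849.8 and 801 CPM (1.42 ± 0.11), and Lamp2, a membrane protein of the organelle, at 371 and 324 against 827 and 773 CPM (1.20 ± 0.11). Psap, the precursor of the saposins, was at 810.1 and 783 against 1602 and 1605 CPM (1.01 ± 0.070). The genes of the factors that switch on lysosomal genes, Tfeb (8.03 and 10.7 against 5.05 and 5.19 CPM) and Tfe3 (-0.079), were not called. Tfeb passed as lower with the replicate block (edgeR adjusted p = 9.51e-05), with DESeq2, with only the 4 WT libraries fitted and with no low-count filter. Membrane and acid-pump genes Atp6v0d1 and Mcoln1 rose by 1.12 and 0.64.

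Of iron and copper genes 7 rose and 2 fell of 18 tested, with a median log2 change of 0.62, or 0.55 with genes at 0 reads set to the fold that 3 counts allow. Cp, the copper oxidase ceruloplasmin, was at 0.608 and 0.333 against 51.2 and 51.8 CPM (6.73 ± 0.20, edgeR adjusted p = 4.55e-06). Fth1, the ferritin heavy chain, was at 749.7 and 688 against 1573 and 1539 CPM (1.11 ± 0.087), Hmox1, which frees iron from haem, at 14.1 and 14.1 against 30.7 and 33.6 CPM (1.19 ± 0.11), and the transferrin receptor gene Tfrc at 93.6 and 83.3 against 51.8 and 45.4 CPM (-0.86 ± 0.098). The iron importer gene Slc11a2 was not called (-0.15). Among antioxidant genes 6 rose and 6 fell of 19 tested, with a median log2 change of 0.19 (10 and 7 with the replicate block, 4 and 3 without non-irradiated replicate 1, 2 and 4 without non-irradiated replicate 2, 3 and 5 without irradiated replicate 1). Nfe2l2, which encodes NRF2, rose by 0.77 ± 0.072 and Gstm1 by 1.76 ± 0.12, and Gsr, glutathione reductase, fell by 0.81.

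Of genes of cholesterol synthesis, uptake and efflux 5 rose and 5 fell of 26 tested, with a median log2 change of 0.093 (11 and 8 with the replicate block, 2 and 5 with only the 4 WT libraries fitted, 3 and 5 with DESeq2, 3 and 2 without non-irradiated replicate 1, 2 and 3 without non-irradiated replicate 2, 2 and 4 without irradiated replicate 1, 2 and 2 without irradiated replicate 2). The main counts were near the shares of all tested genes, 20.4% higher and 18.4% lower. The sterol exporter gene Abcg1 was at 0.548 and 0.933 against 5.19 and 4.05 CPM (2.63 ± 0.34). Enpp2, the enzyme autotaxin that makes the signalling lipid lysophosphatidic acid, was at 1.34 and 0.467 against 91.1 and 81.99 CPM (6.54 ± 0.39).

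**Figure D3:**
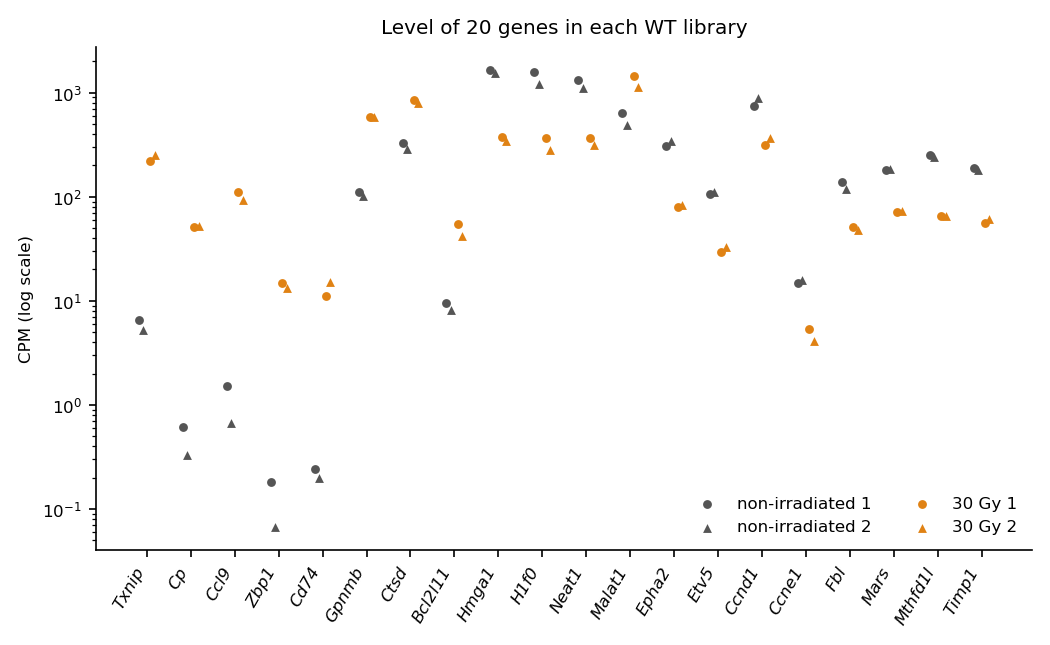
CPM on a log axis of 20 genes named in the text, in each WT library; grey marks non-irradiated and orange irradiated libraries, circles replicate 1 and triangles replicate 2. The groups of each gene shown are apart, with Cp, Zbp1 and Ccl9 rising the most (log2 change 6.73, 6.69 and 6.52) and Hmga1 falling the most (-2.15).

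Extracellular matrix genes rose in part. Of matrix glycoproteins and proteoglycans 19 rose and 2 fell of 31 tested, with a median log2 change of 0.74, and of collagens and their enzymes 14 rose and 1 fell of 29 tested, with a median log2 change of 0.51 (8 and 1 without non-irradiated replicate 1, 9 and 1 without irradiated replicate 2). Thbs2, an inhibitor of vessel growth, was at 0.487 and 0.467 against 5.26 and 6.16 CPM (3.56 ± 0.41), Matn2 at 16.5 and 14.1 against 61.6 and 60.95 CPM (2.002 ± 0.12) and Spp1, osteopontin, at 140.3 and 155 against 305 and 309.6 CPM (1.06 ± 0.080). Among collagens, Col3a1 was at 308 and 342 against 566 and 644 CPM (0.90 ± 0.12), Col4a5 of basement membranes at 23.6 and 27.1 against 79.1 and 78.1 CPM (1.63 ± 0.093), and Col1a2 was not called (0.22; edgeR adjusted p = 6.13e-07 with the replicate block). Col8a1 fell by 0.76. F13a1, the subunit of a transglutaminase that links fibrin, was at 0.122 and 0.133 against 21.1 and 20.4 CPM (7.26 ± 0.33).

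Among proteases of the matrix and their inhibitors 10 rose and 3 fell of 18 tested, with a median log2 change of 0.46 (6 and 3 without irradiated replicate 2). Mmp9 was at 1.10 and 1.60 against 9.95 and 11.4 CPM (2.98 ± 0.38) and Mmp2 at 471 and 505 against 855 and 991 CPM (0.92 ± 0.10), while the inhibitor gene Timp1 was at 188 and 182 against 56.5 and 60.7 CPM (-1.66 ± 0.072). Timp2 and Timp3 were not called, and Timp2 passed with the replicate block (edgeR adjusted p = 1.41e-08). In the plasminogen system the activator genes Plat and Plau rose by 2.47 ± 0.12 and 1.36 ± 0.23, and the receptor gene Plaur fell by 1.49. In the TGF-beta pathway 7 rose and 2 fell of 22 tested, with a median log2 change of 0.17 (11 and 5 with the replicate block, 5 and 0 without non-irradiated replicate 1 or without non-irradiated replicate 2 or without irradiated replicate 2, 4 and 2 without irradiated replicate 1), with Tgfb3 at 0.84 ± 0.095 and Tgfb1 at 59.6 and 65.6 against 58.97 and 65.7 CPM, not called. Id2, a target of BMP signals, was at 63.9 and 54.1 against 164 and 151 CPM (1.41 ± 0.13). Of other secreted factors tied to senescence 4 rose and 1 fell of 10 tested, with a median log2 change of 0.36, with Igfbp7 at 1.28 ± 0.15 and Igfbp4 at -1.07 ± 0.069.

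Of YAP and TAZ targets 3 rose and 6 fell of 18 tested, with a median log2 change of 0.14 (9 and 7 with the replicate block). Axl, a receptor kinase, was at 973 and 1047 against 509 and 544 CPM (-0.94 ± 0.088) and Ccn1 at 138 and 135 against 78.7 and 81.5 CPM (-0.77 ± 0.074), and Ccn2 was not called. In the Hedgehog pathway 1 rose and 3 fell of 9 tested, with a median log2 change of -0.27 (3 and 4 with the replicate block), with Smo, the transducer, at -0.42 ± 0.068 and Cdon at 0.81 ± 0.076. Gli1, the output gene of the pathway, was at 4.99 and 6.20 against 0.360 and 1.14 CPM (-2.84 ± 0.46). In the Wnt and Notch pathways 5 rose and 3 fell of 17 tested, with a median log2 change of 0.22 (6 and 6 with the replicate block, 2 and 3 without non-irradiated replicate 1, 2 and 2 without irradiated replicate 2). Jag1, a Notch ligand, was at 16.2 and 16.9 against 49.8 and 43.6 CPM (1.497 ± 0.11), Hes1, a Notch target, at 12.4 and 12.5 against 5.19 and 5.64 CPM (-1.20 ± 0.16) and Wnt5a at 37.2 and 44.7 against 19.9 and 18.5 CPM (-1.10 ± 0.12). Outside these lists, the transcription factor gene Spib, best known in B cells, was at 0.183 and 0.333 against 54.4 and 54.9 CPM (7.70 ± 0.25). The Wnt antagonist gene Dkk2 was at 168 and 139.5 against 33.8 and 32.2 CPM (-2.22 ± 0.12), the protease-activated receptor gene F2rl1 at 57.5 and 49.5 against 13.05 and 12.4 CPM (-2.07 ± 0.11) and the natriuretic peptide gene Nppb at 48.5 and 40.7 against 10.5 and 9.41 CPM (-2.17 ± 0.19).

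Of mechanosensitive channel genes 4 rose and 4 fell of 18 tested, with a median log2 change of -0.003 (2 and 2 without non-irradiated replicate 1, 3 and 1 without non-irradiated replicate 2, 2 and 1 without irradiated replicate 1, 2 and 3 without irradiated replicate 2). The main counts were near the shares of all tested genes, 20.4% higher and 18.4% lower. Piezo1 was at 287 and 358 against 190.0 and 242 CPM (-0.58 ± 0.17), a call lost without non-irradiated replicate 2 or without irradiated replicate 1, and Trpm4 rose by 0.70 ± 0.14. Piezo2, the gene targeted in the other line, had 0 and 0 reads without irradiation and 3 and 9 reads after it and was not tested. In the KO line it had 0 and 1 reads without irradiation and 7 and 12 reads after it. These counts do not show fewer Piezo2 reads in KO, and they are too few in both lines for a comparison.

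The labels call MC38 an epithelial cell line, and several usual epithelial genes were at or near 0 reads. Of 20 epithelial genes with a row 8 were tested, 3 rose and 0 fell, and Cldn3 and Cldn4 had 0 reads in all WT libraries. Krt18, Cldn2, Cldn7, Esrp1 and Ovol1 had at most 3 reads in every WT library. Epcam, Krt20 and Cdx2, also on the list, had no row. The summed level of the 20 genes was 228 and 255 CPM without irradiation and 259 and 287 CPM after it. Cdh1, E-cadherin, was at 39.1 and 40.5 against 73.96 and 76.7 CPM (0.92 ± 0.076), and the epithelial transcription factor gene Grhl2 at 0.791 and 0.733 against 7.79 and 8.55 CPM (3.41 ± 0.23). Of mesenchymal genes, which summed to 6092 and 6568 against 5281 and 5772 CPM, 5 rose and 1 fell of 18 tested, with a median log2 change of 0.019 (8 and 7 with the replicate block, 3 and 1 without non-irradiated replicate 1 or without irradiated replicate 2, 2 and 1 without non-irradiated replicate 2 or without irradiated replicate 1). Vim, vimentin, was at 4015 and 4400.1 against 3254 and 3669.7 CPM and was not called (edgeR adjusted p = 0.0514), but passed as lower with the replicate block (adjusted p = 9.28e-13) and with DESeq2. Snai2 was at 52.5 and 44.003 against 102 and 93.1 CPM (1.01 ± 0.11) and Itga5 fell by 0.58. Ly6a, a marker of regenerating gut epithelium, was at 535 and 439 against 548 and 443 CPM and was not called, while Slurp1 fell from 267 and 252 to 92.2 and 86.7 CPM (-1.54 ± 0.079) and Ly6e rose by 0.56 ± 0.083. Of Ly6 family genes 2 rose and 1 fell of 7 tested, with a median log2 change of 0.56, and of stemness genes 4 rose and 1 fell of 11 tested, with a median log2 change of 0.025, with Sox4 at 12.7 and 13.9 against 52.7 and 44.02 CPM (1.87 ± 0.13) and Lrig1 at 0.68 ± 0.10.

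Markers of other cell types were low, with the exception of fibroblast genes. The 18 macrophage markers summed to 6.75 and 6 CPM in non-irradiated and 11.2 and 9.24 CPM in irradiated libraries. Of these 4 were tested and 2 rose (0 without irradiated replicate 1 or with the stricter filter), with a median log2 change of 2.80. All 4 tested members had both irradiated libraries above both non-irradiated ones. Summed over each group, Ptprc had 2 against 40 reads, Lyz2 1 against 18 and Ctss 1 against 4. In every WT library 13 of the markers had at most 3 reads, among them Adgre1, Csf1r, C1qa and Tyrobp. The 11 T and NK cell markers with a row summed to between 0.426 and 1.31 CPM, and Cd3e, Cd8a, Nkg7 and Prf1 had 0 reads. The 7 B cell markers summed to 0 and 0.133 CPM and to 3.60 and 2.68 CPM, of which Pax5, with 0 and 0 against 29 and 34 reads, made up most, and Cd22, Cd79b and Ms4a1 had at most 3 reads. Ighm, a B cell marker that was not tested, had 0 and 0 against 15 and 3 reads. The 12 fibroblast markers summed to 469 and 367 CPM and to 797 and 626 CPM. Of these 7 were tested and 6 rose, among them Pdgfrb at 64.2 and 70.4 against 105 and 120.1 CPM (0.74 ± 0.12), Pdgfra at 23.97 and 25.3 against 43.1 and 44.02 CPM (0.82 ± 0.079) and Pi16 at 0.122 and 0.200 against 3.82 and 3.42 CPM (4.44 ± 0.44), and Lum had 0 reads. The 10 endothelial markers summed to 4.38 and 6.07 CPM and to 16.1 and 22.7 CPM, 2 of 5 tested rose, with Vwf at 1.40 and 1.0001 against 8.72 and 12.03 CPM (3.10 ± 0.30), and Emcn had 0 reads. The part of other cells in any of these results was not tested.

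Long noncoding RNAs changed in both directions. Neat1, the scaffold of nuclear paraspeckles, was at 1331 and 1107 against 365 and 314 CPM (-1.84 ± 0.15, edgeR adjusted p = 0.000125), and Malat1, its neighbour and a component of nuclear speckles, at 641 and 488 against 1459.8 and 1139.5 CPM (1.20 ± 0.19). The pair changed in opposite directions. Of widely expressed long noncoding RNAs 3 rose and 4 fell of 16 tested, with a median log2 change of -0.24 (4 and 7 with the replicate block, 1 and 3 with only the 4 WT libraries fitted or without non-irradiated replicate 1 or without irradiated replicate 1, 1 and 4 without non-irradiated replicate 2). Of 408 tested lincRNA genes 85 rose (20.8%) and 26 fell (6.37%), and of 411 antisense genes 60 rose (14.6%) and 15 fell (3.65%), against 21.99% and 21.2% of 12601 protein-coding genes. These classes were not matched for level. In the lowest of the 4 bins of all tested genes by mean CPM 1.98% fell, and in the highest 29.2%. The part of level in the few falls of noncoding genes was not tested. Gm20559 was at 5.72 and 5.53 against 33.3 and 26.7 CPM (2.41 ± 0.16), Gm28818 at 0.243 and 0.133 against 5.26 and 5.42 CPM (4.75 ± 0.55), D030025P21Rik at 20.9 and 27.1 against 7.06 and 6.33 CPM (-1.84 ± 0.22) and Mir17hg, host of a microRNA cluster that Myc drives, at 9.92 and 6.27 against 3.10 and 2.79 CPM (-1.46 ± 0.30), a call lost without non-irradiated replicate 1. The strand setting of the counting is not described, so reads of antisense genes and of their partners cannot be told apart.

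Other abundant genes were among those with the largest gains or losses in CPM. Fn1, fibronectin, was at 154 and 178 against 1191 and 1419 CPM (2.98 ± 0.13). Bgn, the matrix proteoglycan biglycan, was at 1763 and 1974 against 2596 and 3242 CPM (0.64 ± 0.14), a call lost without non-irradiated replicate 1 or without irradiated replicate 2, and Aebp1, a collagen-binding protein, at 813 and 941 against 1531 and 1828 CPM (0.94 ± 0.14). The mitochondrially encoded mt-Cytb was at 2758 and 2689 against 3587 and 3409 CPM (0.36 ± 0.072), a call lost without irradiated replicate 1, and mitochondrial genes took 2.35 to 2.91% of reads in the WT libraries. Among the losses, Ahnak, a giant scaffold protein, was at 3607 and 5082 against 2068 and 2849.7 CPM (-0.82 ± 0.23), a call lost without non-irradiated replicate 2 or without irradiated replicate 1, S100a6, a calcium-binding protein, at 2291 and 2258 against 798 and 728 CPM (-1.58 ± 0.078), Actb, cytoplasmic actin, at 2917 and 3026 against 1558 and 1883 CPM (-0.79 ± 0.10) and Hspa8, the constitutive chaperone HSC70, at 3967 and 3892 against 2708 and 2654 CPM (-0.55 ± 0.064). Rgs16, a brake on G protein signals, was among the largest falls by fold, at 29.6 and 27.7 against 7.86 and 5.87 CPM (-2.07 ± 0.17).

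Many genes near silence before irradiation gained reads. Of 451 tested genes with at most 3 reads over both non-irradiated libraries 293 rose, of which 115 had 0 reads there and 239 are protein coding. Such genes passed the filter through other libraries, so they could hardly be called lower, and 8 of them reached a mean of 5 CPM after irradiation. Ubd, a ubiquitin-like protein, had 1 and 1 against 114 and 115 reads, Adamdec1, a metalloprotease usual in macrophages, 0 and 0 against 75 and 74 reads, and Serpina3h, annotated as a transcribed pseudogene, 0 and 2 against 67 and 88 reads. In KO cells 211 of the 293 were called higher as well, where 21.1% of all tested genes were, and the filter kept these genes through libraries in which they were high. The count was 188 without non-irradiated replicate 1 or irradiated replicate 1, 194 without non-irradiated replicate 2, 199 without irradiated replicate 2, 534 with no filter and 53 with the stricter filter.

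The number of genes with any read rose across classes. At an equal depth of 10971004 reads per library, 17993 and 18306 genes were expected to hold a read without irradiation and 20938 and 21303 after it. Olfactory receptor genes, best known from the nose, went from 23 and 21 to 73 and 72 of 260 on the same scale. Leaving out Olfr56, chosen after its values were seen, they took 4.69 and 4.07 raw CPM without irradiation and 13.4 and 11.8 after it. Genes that did not pass the filter took 689 and 731 raw CPM without irradiation and 1299 and 1375 after it. In KO libraries the olfactory receptor genes without Olfr56 took 4.01 and 4.12 raw CPM without irradiation and 16.58 and 16.04 after it. The part of this general gain in the rises of near-silent genes was not tested.

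**Figure D4:**
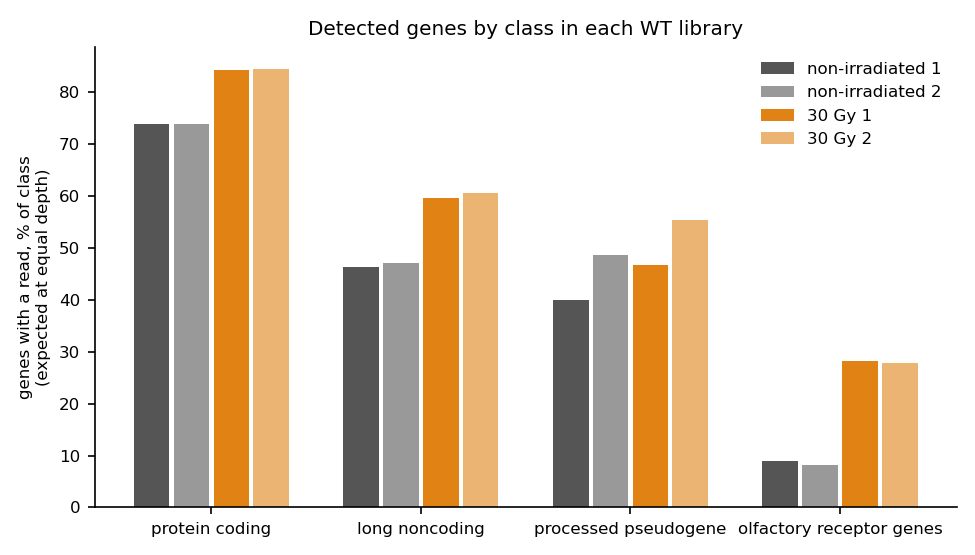
Bars give the percent of genes of a class expected to hold at least 1 read at the equal depth of 10971004 reads, in each WT library; grey is non-irradiated, orange 30 Gy, and the paler bar of each pair is replicate 2. The irradiated bars are above both non-irradiated ones for each class other than processed pseudogenes, where replicates overlap, and for olfactory receptor genes the bars go from 9.03 and 8.14 to 28.2 and 27.8 percent.

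Runs of neighbouring genes called in the same direction were counted. Of all tested genes 20.4% were higher and 18.4% lower, so some runs occur with no link between neighbours. How many would do so was not worked out. There were 51 runs of at least 4 adjacent tested genes called higher and 20 called lower (134 and 91 with the replicate block, 27 and 16 with only the WT libraries fitted, and 20 to 25 and 4 to 11 with 1 WT library left out). The longest, of 10 genes on chromosome 12 between 103407982 and 104414329 (mm10), ran from Ddx24 over Ifi27 and Ifi27l2a to Serpina3n, an acute-phase protease inhibitor at 0.730 and 0.800 against 6.20 and 6.84 CPM (3.08 ± 0.27). Runs of 8 held Lipa and Ifit genes on chromosome 19 (34290666 to 34650009) and an array from Gbp8 to Gbp6 on chromosome 5 (104813169 to 105415670). A run of 7 on chromosome 8 (92827291 to 93969388) held Mmp2 and the carboxylesterase gene Ces1a. Several of these runs are arrays of related genes, and the part of shared reads in their calls was not tested.

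The KO line gave a comparison for each of these changes at the same dose. In both lines 2208 genes rose, 72.5% of the WT rises and 70.0% of the KO rises (of all tested genes 39.7% were called in KO and 21.1% rose), and 2048 fell, 74.4% and 73.9% (18.6% fell in KO). Across the 14923 tested genes the log2 changes of the lines had a Pearson correlation of 0.798, a description of genes that share the libraries' preparation and are not independent. 26 genes were called in opposite directions. The difference between lines (interaction, the KO change minus the WT change) was called for 290 genes (1.94%), 205 above (0.952% of genes by at least 2-fold) and 85 below 0 (0.308%), with 1216 above and 1276 below with the replicate block.

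Many interferon-stimulated effectors rose more in KO: 35 of 65 were called above 0 in the interaction and 0 below, against 1.37% of all tested genes above. Slfn8, of the Schlafen family, changed by 1.95 ± 0.23 in WT and 5.60 ± 0.25 in KO (interaction 3.64 ± 0.34, edgeR adjusted p = 0.00232), and Psmb9 by 2.17 and 5.37 (3.20 ± 0.35, adjusted p = 0.00412). Enpp5 changed by 1.33 in WT and 8.45 in KO (7.12 ± 0.73, adjusted p = 0.00578). Rises that were smaller in KO included Txnip (5.33 and 3.66, interaction -1.67 ± 0.17, adjusted p = 0.00336), the matrix protein gene Fmod (2.95 and 0.87, -2.07 ± 0.24, adjusted p = 0.00578), Lbp (6.22 and 3.77) and the ubiquitin ligase adaptor gene Klhl30 (2.40 and 0.36).

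Among the genes called in opposite directions, Ltbp1, which stores TGF-beta in the matrix, was at 214 and 219 against 105 and 121 CPM in WT, and changed by -0.94 ± 0.092 in WT and 0.92 ± 0.093 in KO (interaction 1.86 ± 0.13, edgeR adjusted p = 0.000968). Mlkl changed by -0.53 and 0.65 (1.18 ± 0.11, adjusted p = 0.00229), Pnpt1, a mitochondrial RNA-degrading enzyme, by -0.77 and 0.86 (1.63 ± 0.12, adjusted p = 0.00117), and Pdgfra by 0.82 and -0.32 (-1.14 ± 0.11, adjusted p = 0.00252). Bcl2 changed by 0.47 in WT, a call lost without non-irradiated replicate 1 or without irradiated replicate 1, and by -0.78 in KO. The edit is represented by 1 line, so line and edit cannot be told apart. The interaction counts ranged from 98 to 131 above 0 and from 17 to 30 below 0 with 1 library left out.

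**Figure D5:**
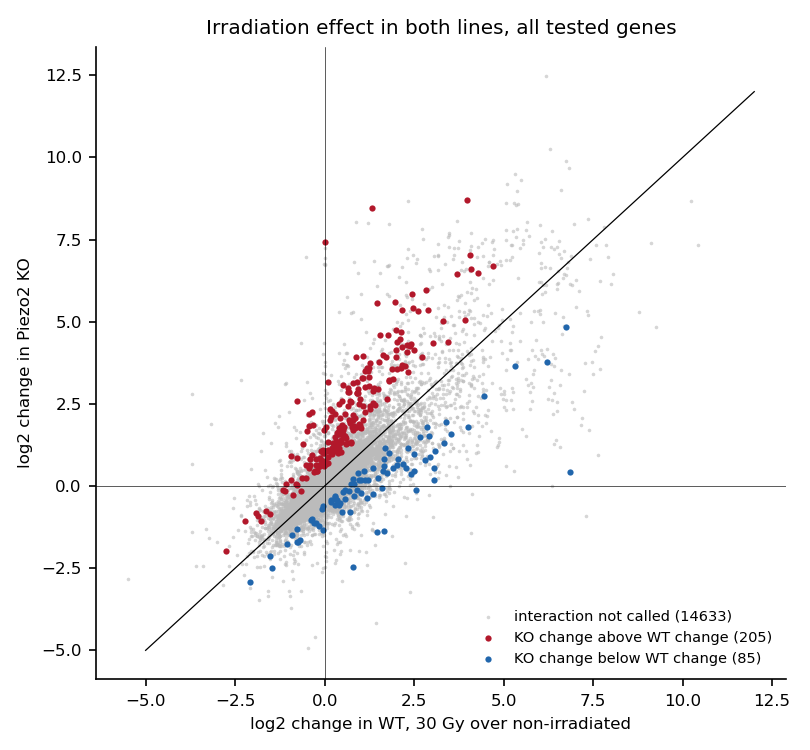
Each point is a tested gene, with its log2 change after 30 Gy in WT cells against that in KO cells, and the diagonal marks equal changes. Red (205) and blue (85) mark genes whose change in KO was called above or below that in WT; grey marks genes whose interaction was not called.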

How the data were processed

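mRNA of MC38 cells was sequenced in 8 libraries, 2 per line and dose. The authors deposited whole-number read counts per gene. HISAT2, HISAT, HTSeq, DESeq2 and the build mm10 are named in the submitters' processing notes, while the annotation release, strand setting and handling of reads with several mapping places were not given in the sources used here. Counts of near-identical copies (Gbp, Tgtp, Ifit3, MHC and histone genes) and of overlapping genes are therefore uncertain. Gene names and coordinates came from GENCODE M21 (GRCm38) and promoters from RefSeq GRCm38.p6, which matched 10516 of 14921 tested symbols (70.5%).

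Genes were kept by edgeR's filterByExpr (minimum count 10, minimum total 15), scaled by TMM and tested with edgeR 4.0.16 (glmQLFit, glmQLFTest; R 4.3.3) over all 8 libraries in 4 groups, so that all groups share 1 estimate of spread. P-values were adjusted by Benjamini-Hochberg over all 14923 tested genes. Errors after ± are the size of the log2 change divided by the square root of the test's F statistic, with n = 2 libraries per group. They are worked back from the test and are not standard errors fitted directly. For genes with only a few reads in a group they can be smaller than counting error alone and overstate precision. Floors of 3 counts over a group and 95% intervals of ratios cover counting error only. Libraries with the same replicate number deviated together in each of 6 pairs of groups (correlations 0.564 to 0.611), which is taken as pairing, though the labels do not say what the number marks. The main fit has no block, and block values stand beside results they move. Adjusted p-values of the block fit were far smaller on the same libraries (Fn1, edgeR: 1.92e-39 with the block and 1.09e-05 without). With 2 libraries per group their size is not read as strength of evidence, and they mark only which calls move. Alternatives were DESeq2 1.42.0, its size factors, other filters, WT libraries alone and each library left out. The scripts were tested on simulated data.

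The members and gene lists were chosen with earlier results of these data known. Genes were named from a rule, of which not every gene is printed: the largest changes among all genes, per list, among long noncoding and near-silent genes, by CPM and in the interaction, and preset anchors of each list. Other named genes were chosen after their values were seen.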

Additional observations from a re-analysis of the deposited data

Results flagged for a closer look

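The change after 30 Gy differed between the WT and KO lines, by the edgeR test of the interaction at an adjusted p under 0.05, for 290 of the tested genes, and the genes named in the text that are among them are given here. Values are the log2 change in KO minus that in WT, with 2 libraries per group. Of interferon, sensing and antigen presentation genes the KO change was above the WT change for Slfn8 by 3.64, Psmb9 by 3.20, Socs1 by 2.61, Tlr3 by 2.48, Psmb8 by 2.36, Isg15 by 2.18, Ifih1 by 2.08, Nlrc5 by 1.99, Irgm2 by 1.98, Irgm1 by 1.86, Pnpt1 by 1.63, Ly6e by 1.62, Lgals3bp by 1.46, Casp4 by 1.42, Psmb10 by 1.35, Trim25 by 1.16, Lgals9 by 1.02 and Zc3hav1 by 0.69.

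Among other genes it was above for Mthfd2 by 0.76, Enpp5 by 7.12, Olfr56 by 3.40, Gm20559 by 1.90, Ltbp1 by 1.86, Mlkl by 1.18, Dkk2 by 1.16, Chac1 by 1.14, Hist1h1c by 1.09, Spp1 by 0.95, Wnt5a by 0.94, Dclre1c by 0.93, Slurp1 by 0.69, Csf1 by 0.61 and Lipa by 0.58. It was below for Ccn1 by -0.55, F2rl1 by -0.84, Mxd4 by -0.84, Pdgfra by -1.14, Slc7a2 by -1.18, Jag1 by -1.24, Bcl2 by -1.25, Plau by -1.61, Txnip by -1.67, Cp by -1.89, Klhl30 by -2.04, Fmod by -2.07 and Lbp by -2.45. With 1 library left out, the number of genes called in this test was at most 131 above 0 and 30 below 0. Olfr56 is a gene chosen after its values were seen.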

How the results depend on the processing

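With the replicate number as a block, 4569 genes were higher and 4465 lower in WT (3047 and 2751 without it), and 4569 were higher and 4417 lower in KO. The interaction was called for 1216 genes above and 1276 below 0, and runs of neighbouring genes numbered 134 higher and 91 lower. With only the 4 WT libraries fitted there were 27 higher runs, and with DESeq2's Wald test 13 lower runs. With no low-count filter there were 19 higher and 6 lower runs, 534 near-silent genes called higher, and 359 interaction genes above and 219 below 0. The stricter filter left 53 near-silent genes called higher. At an adjusted p threshold of 0.01, 1776 genes were higher and 1600 lower in WT. With 1 library left out, the higher count in WT lay between 1998 and 2178 and the lower count between 1741 and 2163. Higher runs lay between 20 and 25, lower runs between 4 and 11, near-silent genes between 188 and 199, and interaction genes between 98 and 131 above and between 17 and 30 below 0. The lower count in KO lay between 1738 and 2013. The cause of these moves was not tested, other than that a fit without 1 library has fewer samples and that filters change the genes tested.

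Over the named genes and all alternatives, 2713 results kept their side of the threshold, 31 passed it only under the alternative and 17 no longer passed it. Of the 2713, 29 were called in neither fit and differed in sign from the main fit. None of the genes called in the main test reversed. DESeq2 size factors changed no call of a named gene. A list count that moved by 1 gene is not given. With 2 libraries per group and 4 residual degrees of freedom, small changes could be missed: on simulated counts for the WT comparison, 52% of genes with a 2-fold rise and 46% with a 2-fold fall were called. That simulation changed 50 genes at each fold among 14923, far fewer than were called here, and held no shared replicate difference. Its shares therefore do not measure what was missed in the deposited data.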
